A study of Mus musculus with 4 samples.

Results

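The Notch genes described here are 10 of the 33954 genes in the count matrices, taken by symbol: the receptors Notch1, Notch2, Notch3 and Notch4, the ligands Dll4, Jag1 and Jag2, and the target genes Hey1, Hey2 and Hes1. All 10 had counts in every library, with totals between 296 unique molecular identifiers (UMIs) for Hey1 and 14466 for Notch2. Notch receptors are surface proteins that bind ligands on neighbouring cells. Cleavage by ADAM proteases and by gamma-secretase then frees the intracellular domain, which joins RBPJ and Mastermind proteins on DNA and switches on repressors of the Hes and Hey families. In blood vessels VEGF-A induces Dll4, Notch signalling restrains sprouting and favours arterial identity, and endothelial Jag1 signals to Notch3 on mural cells, the pericytes and smooth muscle cells that wrap the vessel.

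Nuclei of mouse hearts were profiled by single-nucleus RNA sequencing with a 10x Genomics 5' kit, with 1 library in each of 4 groups. The groups were Q150X hearts 3 days after myocardial infarction (Q150X 3dpMI), WT hearts 3 days after infarction (WT 3dpMI), Q150X hearts at homeostasis and WT hearts at homeostasis. Q150X is an allele of Vegfa, the gene of VEGF-A, edited with CRISPR/Cas9 after a stop-gained variant of the human gene, and WT hearts are wild type. If both copies of Vegfa carried the allele is not spelt out in the labels, which have "ho" in the Q150X titles. The series speaks of adult mice, and the labels give neither strain nor age in numbers, nor if hearts were pooled.

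The libraries held between 4390 and 9157 barcodes and between 5875965 and 32657625 UMIs, and 26152 of 28216 nuclei passed the filters. The 3dpMI libraries were deeper, and their median nucleus had 2671 UMIs in Q150X and 2029 in WT, against 968 and 921 in Q150X and WT at homeostasis. Pairs of libraries shared between 39 and 117 barcodes, at most 1.44% of the smaller library. Vegfa stood at 700 CPM in Q150X and 594 CPM in WT cardiomyocyte nuclei at 3dpMI, and at 925 and 716 CPM in Q150X and WT at homeostasis. Over all nuclei it stood at 133 CPM in Q150X and 210.1 in WT at 3dpMI, and at 374 and 427 CPM in Q150X and WT at homeostasis, the other way round. Cardiomyocytes were 381 of 7364 nuclei in Q150X 3dpMI and 1158 of 8479 in WT 3dpMI, against 837 of 6142 in Q150X homeostasis and 1564 of 4167 in WT homeostasis. A count of transcripts does not check a stop codon in them. CPM is the UMI count of a gene summed over the nuclei of a class, per 1000000 UMIs of that class. With 1 library in each group no difference has a replicate check and no test was run, and each interval in parentheses is an exact 95% interval that covers counting error only. A gene was called different between 2 sums where its CPM differed by more than 1.5-fold with at least 20 UMIs over both. Shares of all genes are given for this rule alone. They were not computed for counts over the median ratio of all genes or in alternative settings. A class is named for the cell type whose markers its nuclei carried, and a class of under 20 nuclei in a library, such as the 19 smooth muscle nuclei of Q150X 3dpMI, has no value there. The 11 vascular endothelial markers together stood between 10045 and 11311 CPM in vascular endothelial nuclei and between 249 and 605 CPM in fibroblasts. Of the vascular endothelial nuclei, 492 of 1443 in Q150X 3dpMI, 591 of 2605 in WT 3dpMI, 64 of 732 in Q150X homeostasis and 32 of 547 in WT homeostasis took no subtype name. The Notch genes were left out of the genes used for clustering, but the clusters rest on other genes of the same nuclei, so differences between classes are descriptions.

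Each receptor had its own distribution over the heart. Notch1, which takes up the Dll4 signal in endothelium, was highest in endocardial and arterial endothelial nuclei. In endocardial nuclei, which line the heart chambers, Notch1 stood at 359.8 CPM in Q150X 3dpMI, 437 in WT 3dpMI, 304 in Q150X homeostasis and 325 in WT homeostasis. In arterial nuclei it stood at 378 CPM in Q150X 3dpMI, 339 in WT 3dpMI, 291 in Q150X homeostasis and 241 in WT homeostasis. These classes held the first and second place for Notch1 in each library, and their ratio, endocardial over arterial, had an interval clear of 1 in WT 3dpMI alone, at 1.29 (1.04 to 1.60). Fibroblasts held between 21.0 and 52.4 CPM of Notch1, and cardiomyocytes between 4.21 and 5.35.

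Notch4, a receptor largely restricted to endothelium, stood at 378 CPM in Q150X 3dpMI, 266 in WT 3dpMI, 291 in Q150X homeostasis and 274 in WT homeostasis in arterial nuclei. In angiogenic endothelial nuclei, a class of under 20 nuclei in both homeostasis libraries, Notch4 stood at 355 CPM in Q150X and 323 CPM in WT at 3dpMI. In both 3dpMI libraries the arterial and angiogenic levels of Notch4 were within counting error of each other. Lymphatic endothelial nuclei had the least Notch4 of the endothelial classes, with 63.4 CPM in Q150X 3dpMI, 69.9 in WT 3dpMI and 1 UMI in each homeostasis library.

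Notch2, a receptor of broad expression, had the opposite distribution. Macrophage or monocyte nuclei held 519.8 CPM in Q150X 3dpMI, 499 in WT 3dpMI, 445 in Q150X homeostasis and 392 in WT homeostasis. Vascular endothelial nuclei held 47.8 CPM in Q150X 3dpMI, 56.5 in WT 3dpMI, 57.0 in Q150X homeostasis and 25.8 in WT homeostasis. The macrophage level of Notch2 was thus several times the endothelial one in each library. Fibroblasts held between 193 and 217 CPM of Notch2, cardiomyocytes between 106 and 134, and dendritic nuclei 665 CPM in Q150X 3dpMI and 601 in WT 3dpMI.

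Notch3, the receptor of mural cells, was highest in pericyte and smooth muscle nuclei. Pericyte nuclei held 1407 CPM in Q150X 3dpMI, 1283 in WT 3dpMI, 862 in Q150X homeostasis and 568 in WT homeostasis. Smooth muscle nuclei held 1151.5 CPM in WT 3dpMI, 747 in Q150X homeostasis and 1220.5 in WT homeostasis. Smooth muscle over pericyte, the ratio was 0.898 (0.766 to 1.05) in WT 3dpMI, 0.867 (0.618 to 1.19) in Q150X homeostasis and 2.15 (1.62 to 2.84) in WT homeostasis, so the order of the mural classes differed between libraries. Vascular endothelial nuclei held 27 Notch3 UMIs in Q150X 3dpMI, 65 in WT 3dpMI, 3 in Q150X homeostasis and 9 in WT homeostasis, and the pericyte level was between 34.2 and 188 times the endothelial one, with 161 (55.0 to 785) in Q150X homeostasis, where the endothelial sum was smallest.

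**Figure D1:**
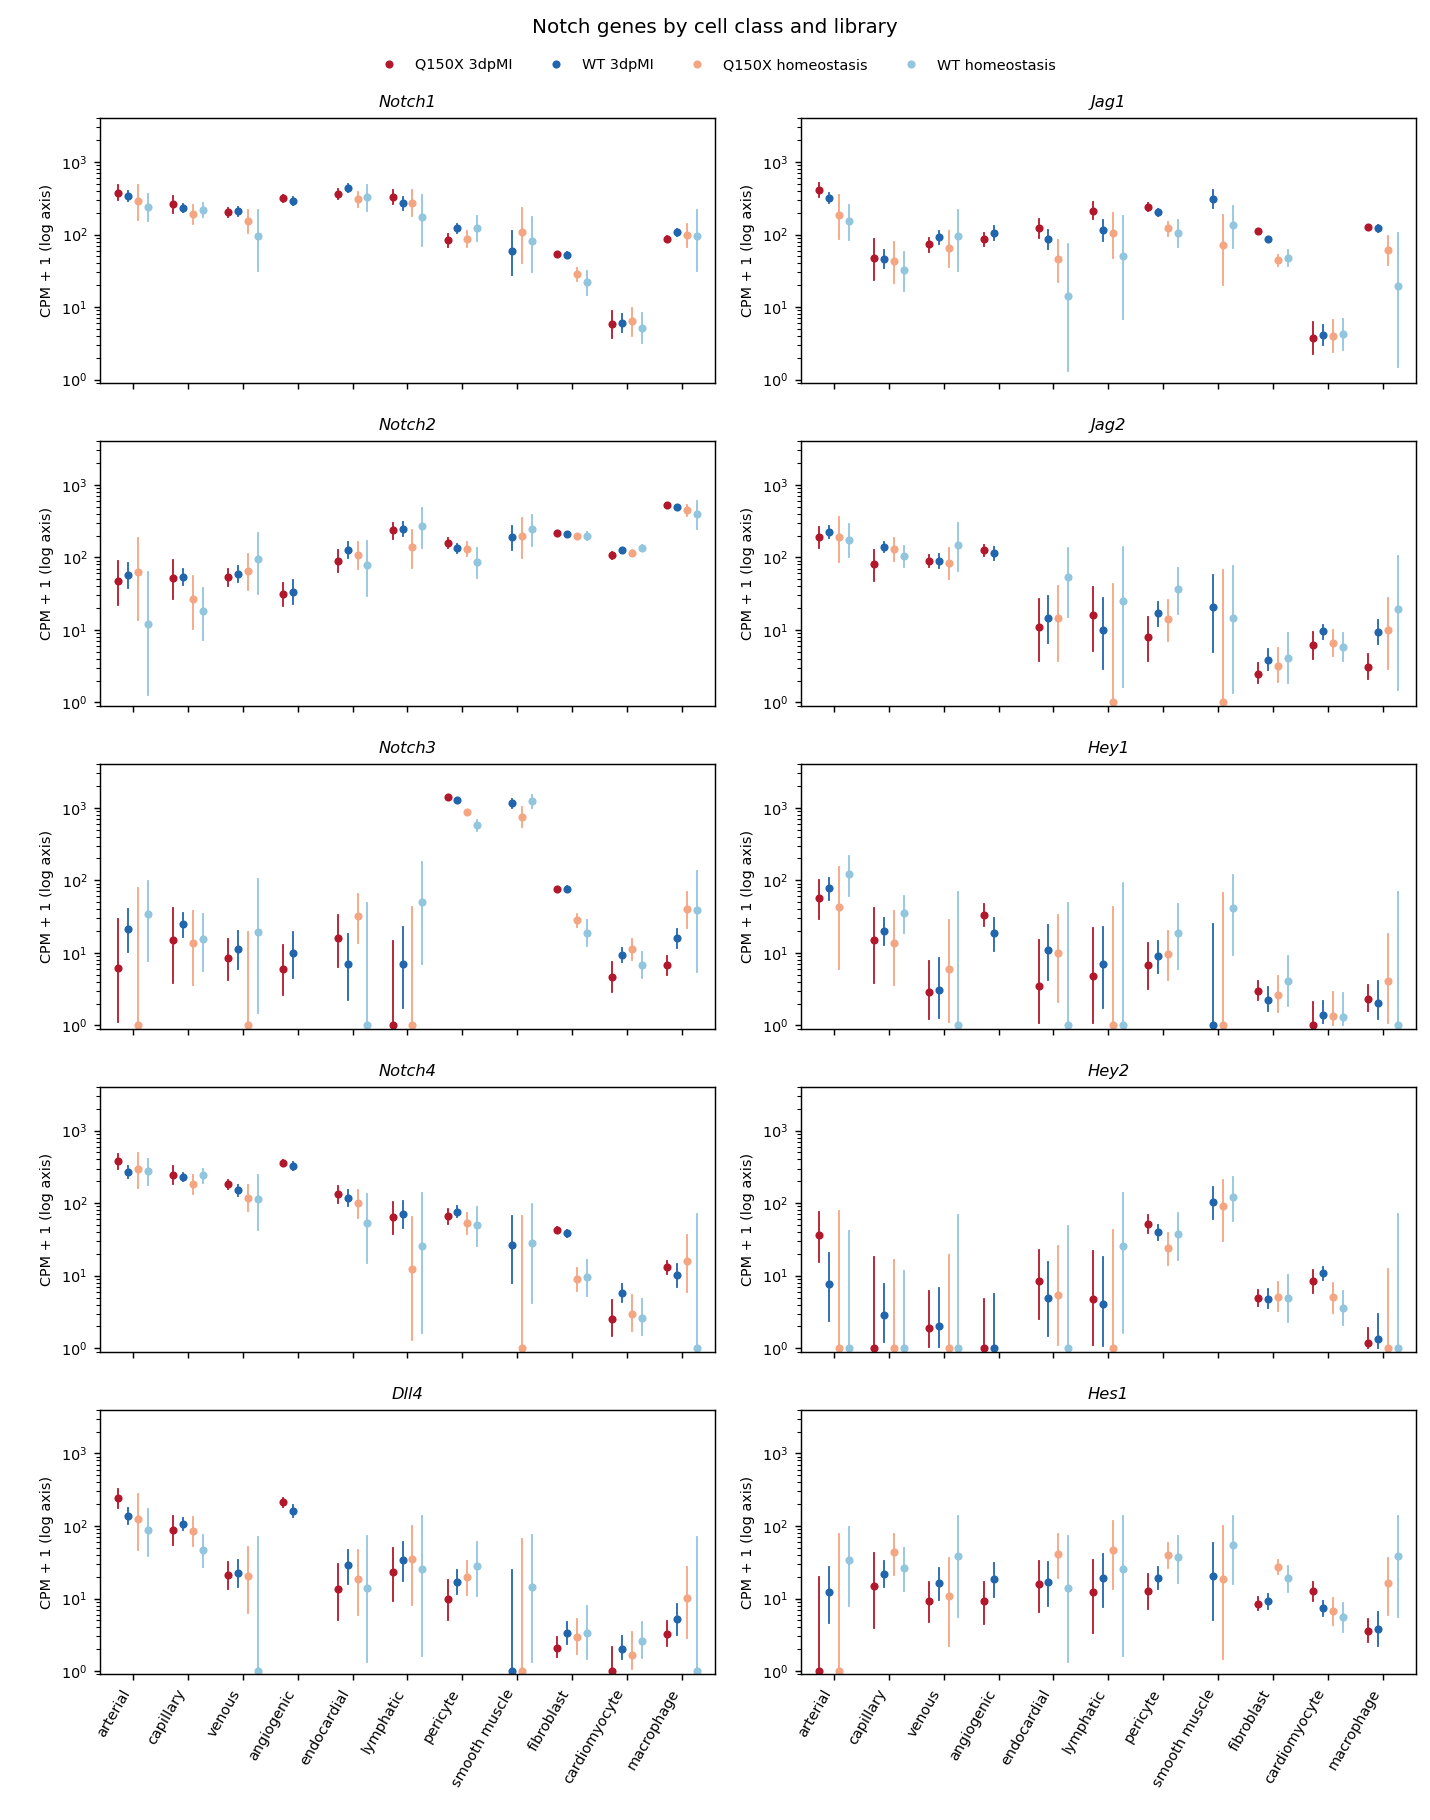
CPM plus 1 on a log axis for the 10 Notch genes (panels) in 11 classes, with 1 point per library and its exact 95% counting interval. Notch1, Notch4, Dll4, Jag2 and Hey1 stand highest in endothelial classes, Notch3 and Hey2 in mural classes and Notch2 in macrophages. Points at 1 are sums of 0 UMIs.

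Of the ligands, Dll4, which marks sprouting tip cells and answers to VEGF-A, was highest in arterial and angiogenic nuclei. Arterial nuclei held 239.8 CPM in Q150X 3dpMI, 138 in WT 3dpMI, 125 in Q150X homeostasis and 87.7 in WT homeostasis, the homeostasis values resting on 6 and 8 UMIs. Venous nuclei held 20.3 CPM in Q150X 3dpMI, 21.5 in WT 3dpMI and 19.7 in Q150X homeostasis, and no Dll4 UMI in WT homeostasis. Angiogenic nuclei held 212 CPM in Q150X 3dpMI, 2.40 (1.498 to 4.07) times the capillary level. In WT 3dpMI they held 160.2 CPM, 1.52 (1.17 to 1.97) times the capillary level. Fibroblast levels of Dll4 were between 0.0107 and 0.0453 of the vascular endothelial ones.

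Jag1, a ligand made by both endothelial and mural cells, was highest in arterial nuclei in each library. Arterial nuclei held 413 CPM in Q150X 3dpMI, 318 in WT 3dpMI, 187 in Q150X homeostasis and 153 in WT homeostasis. The ratio to the next class had an interval clear of 1 in Q150X 3dpMI alone, at 1.75 (1.34 to 2.26) over pericytes. Capillary nuclei held between 31.4 and 46.5 CPM in the 4 libraries, below the arterial value in each. Outside endothelium, pericytes held 236.5 CPM in Q150X 3dpMI, 202 in WT 3dpMI, 120.1 in Q150X homeostasis and 104 in WT homeostasis. Fibroblasts held 109 CPM in Q150X 3dpMI, 84.8 in WT 3dpMI, 43.4 in Q150X homeostasis and 46.8 in WT homeostasis. In both of these classes the 3dpMI libraries stood above the homeostasis ones.

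Jag2, which binds the same receptors as Jag1, differed from it in staying with vascular endothelium, at 103 CPM in Q150X 3dpMI, 121 in WT 3dpMI, 112 in Q150X homeostasis and 114 in WT homeostasis. Fibroblast levels of Jag2 were between 0.0146 and 0.0273 of the endothelial ones. Pericytes held 6.87 CPM of Jag2 in Q150X 3dpMI and 16.0 in WT 3dpMI. The endothelial markers found in pericytes would bring 8.30 CPM in Q150X and 18.8 CPM in WT with them, each above the measured level. At homeostasis pericytes held 13.02 CPM in Q150X (9 UMIs) and 36.0 in WT (8 UMIs), where the markers would bring 12.1 CPM in Q150X and 29.3 in WT, both within the counting interval of the measured level.

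The targets were read from far fewer UMIs. Hey1, a repressor that helps to set arterial identity, had 67 UMIs in vascular endothelial nuclei of Q150X 3dpMI, 81 in WT 3dpMI, 7 in Q150X homeostasis and 24 in WT homeostasis. Arterial nuclei held 56.1 CPM in Q150X 3dpMI, 76.8 in WT 3dpMI, 41.6 in Q150X homeostasis and 121 in WT homeostasis, the Q150X homeostasis value resting on 2 UMIs and the WT one on 11. Arterial nuclei were the highest class for Hey1 in all 4 libraries, with an interval of the ratio to the next class clear of 1 in WT 3dpMI alone. Hes1, a repressor that also answers to pathways other than Notch, was low and evenly spread, with a different highest class in each library. The interval of the ratio of its first to its second class included 1 in all 4.

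Hey2, the Hey repressor of smooth muscle and arteries, was highest in mural nuclei. Smooth muscle nuclei held 104 CPM of Hey2 in WT 3dpMI, 89.0 in Q150X homeostasis and 121 in WT homeostasis. Pericytes held 51.0 CPM in Q150X 3dpMI, 38.7 in WT 3dpMI, 23.1 in Q150X homeostasis and 36.0 in WT homeostasis. In Q150X 3dpMI, where smooth muscle has no value, the counting interval of the pericyte level of Hey2 overlapped that of arterial nuclei, which held 35.7 CPM. Smooth muscle stood above pericytes in each library that holds both, by 2.68 (1.44 to 4.69) times in WT 3dpMI, 3.84 (1.10 to 10.98) times in Q150X homeostasis and 3.35 (1.15 to 9.97) times in WT homeostasis.

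Hey2 followed Notch3 more closely than it did any other member over 51 sums of 16 classes and 4 libraries (Pearson r = 0.788 on log2 of CPM plus 10, across sums that share libraries and depth). Their promoter windows, the 250 bases before and 50 bases after the start of each gene, are shown because RBPJ, the DNA-binding partner of Notch, is known to bind the letters TGGGAA. The sequences are those of RefSeq on build GRCm38.p6, an older build than that of the count files. Hey2 lies at chr10:30842734-30843033 on the minus strand and Notch3 at chr17:32166841-32167140 on the minus strand. Capitals mark TGGGAA or, on the other strand, TTCCCA, and both are written in the direction of the gene.
Hey2: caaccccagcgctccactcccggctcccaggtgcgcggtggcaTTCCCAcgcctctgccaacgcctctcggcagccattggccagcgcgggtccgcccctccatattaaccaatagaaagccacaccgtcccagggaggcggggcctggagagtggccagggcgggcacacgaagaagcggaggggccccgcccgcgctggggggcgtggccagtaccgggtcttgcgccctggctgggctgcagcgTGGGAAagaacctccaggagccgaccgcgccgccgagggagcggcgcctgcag
Notch3: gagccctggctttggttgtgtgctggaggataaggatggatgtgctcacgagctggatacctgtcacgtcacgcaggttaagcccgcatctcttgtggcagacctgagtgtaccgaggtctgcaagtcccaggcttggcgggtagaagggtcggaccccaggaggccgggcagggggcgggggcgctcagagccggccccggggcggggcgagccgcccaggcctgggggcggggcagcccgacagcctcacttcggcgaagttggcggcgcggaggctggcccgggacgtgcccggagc
The Hey2 window held the letters 2 times, starting at positions -207 and -3 from the gene start, and the Notch3 window did not hold them. Of the 8 members with an entry, the windows of Notch1, Notch2, Notch4, Dll4, Jag1 and Jag2 did not hold them either. Of all 32851 promoter windows of the same length, 25.56% held the letters on 1 strand or the other, so a match is a description of letters and not a site.

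Among endothelial subtypes, Notch1, Notch4, Dll4, Jag1, Jag2 and Hey1 were each higher in arterial than in capillary and in venous nuclei in all 4 libraries. The Jag1 ratio over capillary nuclei was 8.89 (4.59 to 19.2) in Q150X 3dpMI, 7.09 (5.09 to 10.0) in WT 3dpMI, 4.43 (1.59 to 12.1) in Q150X homeostasis and 4.89 (2.06 to 11.9) in WT homeostasis. The other ratios were smaller, between 3.28 and 4.02 for Hey1 (clear of 1 in 3 libraries), 1.43 and 2.39 for Jag2 (2 libraries), 1.31 and 2.71 for Dll4 (Q150X 3dpMI alone), 1.14 and 1.60 for Notch4 (Q150X 3dpMI alone) and 1.10 and 1.53 for Notch1 (2 libraries).

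Counted by the 1.5-fold rule, 4 of 6 members with enough UMIs were higher in arterial than in capillary nuclei in Q150X 3dpMI, where 18.0% of all genes tested were. In WT 3dpMI it was 3 of 9 (13.2% of all genes), in Q150X homeostasis 2 of 4 (19.4%) and in WT homeostasis 4 of 6 (15.8%). The member median of the log2 ratio was 0.94, 0.39, 0.59 and 0.86 in the same order, against all-gene medians between -0.02 and 0.01. The members stood above the background in each library, though on few genes.

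Against venous nuclei the arterial excess was larger for Dll4. Dll4 was 11.8 (6.98 to 20.6) times as high in arterial nuclei of Q150X 3dpMI, 6.40 (3.84 to 11.1) times in WT 3dpMI and 6.32 (1.498 to 30.4) times in Q150X homeostasis. In WT homeostasis 8 arterial UMIs stood against 0 venous ones, at least 1.57-fold higher against a floor of 3 UMIs in the venous sum. Hey1 had 11 arterial and 2 venous UMIs in Q150X 3dpMI, a ratio of 30.4 (6.64 to 283), and 34 and 2 in WT 3dpMI, a ratio of 37.5 (9.61 to 322). By the 1.5-fold rule 5 of 6 members were higher in arterial than in venous nuclei in Q150X 3dpMI (14.6% of all genes), 6 of 8 in WT 3dpMI (13.4%), 4 of 4 in Q150X homeostasis (18.4%) and 2 of 3 in WT homeostasis (23.7%). Venous nuclei held more Jag1 than capillary ones in all 4 libraries, with ratios between 1.52 and 2.97 and an interval clear of 1 in 1 library.

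**Figure D2:**
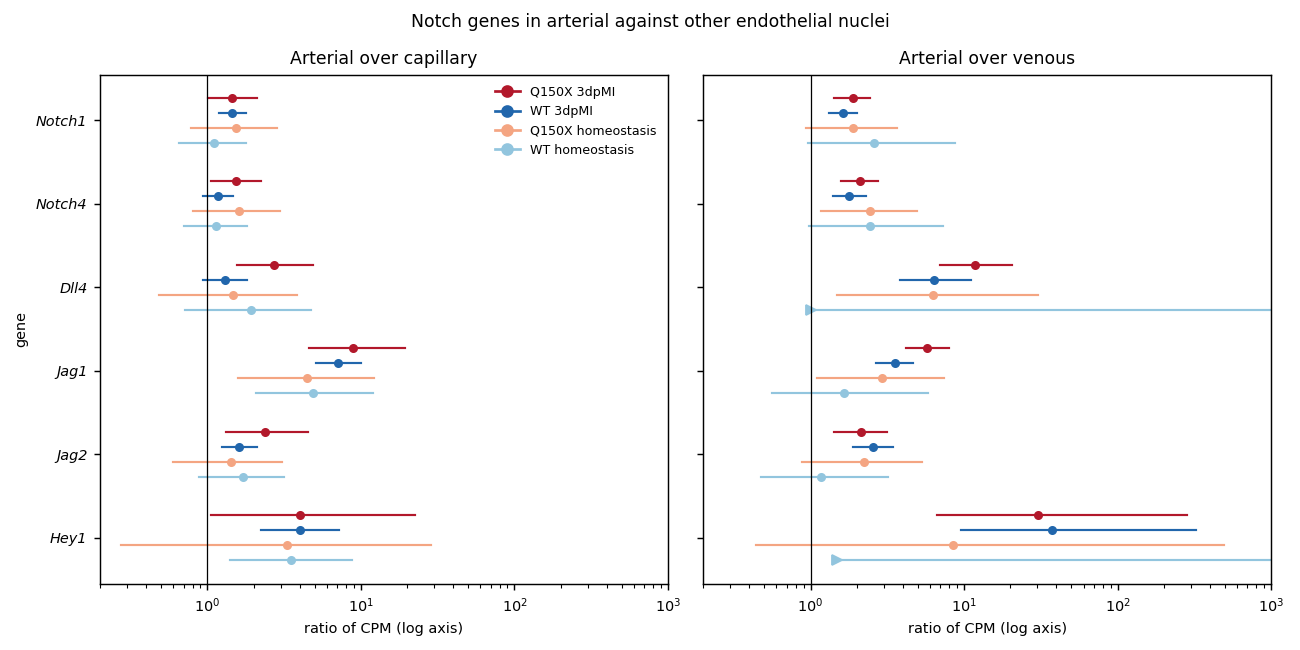
Ratio of CPM on a log axis of 6 Notch genes in arterial over capillary (left) and arterial over venous nuclei (right), with 1 point per library and its exact 95% counting interval; the vertical line is at 1. Jag1 lies well to the right of 1 on the left, Dll4 and Hey1 on the right, and a triangle stands at the lower limit where the venous sum had 0 UMIs.

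The arterial nuclei were made up of a larger subcluster and a smaller one led by Efna5, Gja5 and Bmx, genes of larger arteries, and Jag1 and Dll4 were higher in the smaller. At 3dpMI Jag1 stood at 687 CPM in the smaller subcluster of Q150X, against 173 in the larger, a ratio of 3.97 (2.32 to 7.13). In WT 3dpMI Jag1 stood at 741 and 175 CPM in the smaller and the larger, a ratio of 4.23 (2.99 to 6.02). The Dll4 ratio was 2.97 (1.53 to 6.13) in Q150X 3dpMI and 1.79 (1.02 to 3.08) in WT 3dpMI. Past 1.5-fold, 3 of 5 members were higher in the smaller subcluster in Q150X 3dpMI (22.4% of all genes) and 4 of 7 in WT 3dpMI (17.4%). All 7 arterial Hey2 UMIs of Q150X 3dpMI lay in the smaller subcluster. The smaller subcluster made up 31 of 93 arterial nuclei in Q150X 3dpMI, 66 of 305 in WT 3dpMI, 14 of 60 in Q150X homeostasis and 4 of 92 in WT homeostasis.

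Pericytes held more Notch3, Hey2 and Jag1 and less Notch2 than fibroblasts. Pericytes held 18.7 (17.1 to 20.5) times the fibroblast level of Notch3 in Q150X 3dpMI, 17.1 (15.6 to 18.9) times in WT 3dpMI, 31.8 (25.3 to 40.4) times in Q150X homeostasis and 31.7 (20.2 to 51.8) times in WT homeostasis. Jag1 was between 2.16 and 2.77 times and Hey2 between 5.58 and 13.04 times as high in pericytes as in fibroblasts. Notch2 was lower in pericytes, at between 0.432 and 0.716 of the fibroblast level, with each interval clear of 1. Past 1.5-fold, 9 of 10 members were higher in pericytes than in fibroblasts in Q150X 3dpMI and in WT 3dpMI (17.2% of all genes in each), 5 of 7 in Q150X homeostasis (16.8%) and 5 of 6 in WT homeostasis (17.9%). Endothelial markers stood at 809 CPM in pericytes of Q150X 3dpMI, 1693 in WT 3dpMI, 1128 in Q150X homeostasis and 2897 in WT homeostasis, above the 249 to 605 CPM in fibroblasts, and their part in the pericyte counts of Notch1, Notch4, Dll4 and Jag2 was not tested. For Notch4 that share of endothelial RNA would bring 21.5, 36.0, 18.8 and 60.5 CPM in Q150X 3dpMI, WT 3dpMI, Q150X homeostasis and WT homeostasis, against the measured 64.8, 75.5, 52.1 and 49.6 CPM.

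Endocardial nuclei combined high Notch1 with low Dll4 and Jag2. Compared with vascular endothelial nuclei, Notch1 was 1.37 (1.15 to 1.64) times as high in Q150X 3dpMI, 1.75 (1.51 to 2.03) times in WT 3dpMI, 1.64 (1.19 to 2.25) times in Q150X homeostasis and 1.62 (1.003 to 2.52) times in WT homeostasis. Dll4 was between 0.120 and 0.304 and Jag2 between 0.0962 and 0.455 of the vascular level. Notch4 was between 0.220 and 0.563 of it, with each interval below 1. By the 1.5-fold rule 7 of 9 members differed in either direction in both Q150X 3dpMI (41.7% of all genes) and WT 3dpMI (40.7%), and 7 of 7 in Q150X homeostasis (44.8%) and in WT homeostasis (55.6%).

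Lymphatic endothelial nuclei held Notch2 in place of Notch4. Notch2 stood at 235 CPM in Q150X 3dpMI, 249 in WT 3dpMI, 138 in Q150X homeostasis and 269 in WT homeostasis, which was between 2.41 and 10.4 times the vascular endothelial level. Notch4 was between 0.0657 and 0.302 of the vascular level, with each interval below 1. Notch1 in lymphatic nuclei stood at 332 CPM in Q150X 3dpMI, 267 in WT 3dpMI, 275 in Q150X homeostasis and 171 in WT homeostasis. That was between 0.850 and 1.49 times the vascular endothelial level, with an interval above 1 in 1 library and below 1 in none.

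In the comparison of Q150X with WT, Dll4 is given first because VEGF-A is known to induce it. VEGF-A protein was not measured. Dll4 was close in both genotypes over all vascular endothelial nuclei. In vascular endothelial nuclei it stood at 103 CPM in Q150X 3dpMI and 98.7 in WT 3dpMI, a ratio of 1.05 (0.910 to 1.21), and at 58.8 CPM in Q150X homeostasis and 51.6 in WT homeostasis, a ratio of 1.14 (0.667 to 1.95). Of 9 members with enough UMIs at 3dpMI, 0 were higher and 2 lower in Q150X endothelium, where 10.2% and 7.66% of all genes were higher and lower. At homeostasis 1 of 8 was higher (17.9% of all genes) and 1 lower (8.85%). The member median of the log2 ratio was -0.04 at 3dpMI and -0.07 at homeostasis, against 0.09 and 0.07 over all genes, so the member medians lay slightly below those of all genes. With at least 1000 UMIs per nucleus, 1 member was past 1.5-fold at 3dpMI and 0 at homeostasis.

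The 2 members lower in Q150X endothelium at 3dpMI were Notch3 and Hes1. Notch3 stood at 7.47 CPM in Q150X and 14.9 in WT, a ratio of 0.5004 (0.307 to 0.795), and the 7 pericyte markers in these nuclei were also lower in Q150X, at 116 against 273 CPM in WT. Hes1 stood at 9.68 CPM in Q150X and 15.4 in WT, a ratio of 0.629 (0.406 to 0.961). Notch4 was 1.16 (1.06 to 1.26) times as high in Q150X, at 268 against 231 CPM, a small difference clear of counting error. The part of pericyte RNA in the Notch3 values was not tested, and in both libraries they lie below the 28.5 CPM in Q150X and 49.96 CPM in WT that the pericyte markers would bring.

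At homeostasis the higher member was Notch2 and the lower one Hey1. Notch2 stood at 57.0 CPM in Q150X and 25.8 in WT endothelium, a ratio of 2.21 (1.14 to 4.48). Cardiomyocyte markers in these nuclei were higher in Q150X as well, at 8220 against 3244 CPM in WT, and would bring 14.1 CPM of Notch2 in Q150X and 5.81 in WT. Venous nuclei made up 273 of 732 vascular endothelial nuclei in Q150X and 67 of 547 in WT, and they held 64.2 CPM of Notch2 in Q150X and 93.1 in WT, against 25.3 and 17.1 CPM in capillary nuclei of Q150X and WT. These levels rest on 13 venous and 6 capillary UMIs in Q150X, and on 5 and 6 in WT. The venous over capillary interval included 1 in Q150X (0.898 to 8.12) and lay above it in WT (1.31 to 21.4). The part of the venous share in the Notch2 ratio was not tested. Hey1 stood at 12.5 CPM in Q150X (7 UMIs) and 44.3 in WT (24 UMIs), a ratio of 0.282 (0.102 to 0.674). Arterial nuclei, where Hey1 is highest, made up 60 of 732 vascular endothelial nuclei in Q150X and 92 of 547 in WT. Within capillary nuclei Hey1 had 3 UMIs in Q150X and 12 in WT, and within arterial nuclei 2 and 11, too few for a ratio by the 20-UMI rule. The part of the arterial share in the Hey1 ratio was not tested.

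Within subtypes at 3dpMI, Dll4 was higher in Q150X where it is most abundant. Arterial nuclei held 239.8 CPM in Q150X and 138 in WT, a ratio of 1.74 (1.16 to 2.59). That ratio was 1.21 with at least 1000 UMIs per nucleus and under 1.5 in 5 of 9 alternative settings. Angiogenic nuclei held 212 and 160.2 CPM in Q150X and WT, a ratio of 1.32 (1.06 to 1.66). Capillary nuclei held 88.4 and 105 CPM in Q150X and WT, a ratio of 0.838 (0.487 to 1.37). Dll4 was the 1 member of 7 past 1.5-fold higher in arterial nuclei (13.8% of all genes), and in the larger and smaller arterial subclusters it stood at 125 and 370.5 CPM in Q150X, against 115 and 205 in WT. The smaller subcluster, where Dll4 is higher, made up a larger part of arterial nuclei in Q150X. Jag2 was lower in Q150X capillary nuclei at 3dpMI, at 79.1 against 138 CPM in WT, a ratio of 0.571 (0.324 to 0.945). Of 9 members in that class 3 were past 1.5-fold lower (15.9% of all genes), Jag2 among them.

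In pericytes Notch3 was higher in Q150X at homeostasis, at 862 against 568 CPM in WT, a ratio of 1.52 (1.25 to 1.86). The ratio was 1.345 with doublets kept and under 1.5 in 4 of 9 alternative settings. Those among the 9 that touch endothelial nuclei alone could not move it. At 3dpMI Notch3 stood at 1407 CPM in Q150X and 1283 in WT pericytes, a ratio of 1.10 (1.02 to 1.17). In smooth muscle the homeostasis values ran the other way, with 747 CPM in Q150X (42 UMIs) and 1220.5 in WT (91 UMIs), a ratio of 0.612 (0.414 to 0.892). Of 7 pericyte members at homeostasis 2 were higher (20.7% of all genes) and 1 lower (11.6%), and with ratios taken over the all-gene median 0 were higher. At 3dpMI 0 of 9 were higher (10.6% of all genes) and 3 lower (9.75%), namely Dll4, Jag2 and Hes1, each with an interval that included 1. Notch1 stood at 82.4 CPM in Q150X and 122 in WT pericytes at 3dpMI, a ratio of 0.678 (0.519 to 0.880). Endothelial markers in these nuclei ran the same way, at 809 CPM in Q150X and 1693 in WT, and their part in the Notch1 ratio was not tested.

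In fibroblasts the genotypes were close for the members with many UMIs. Jag1 at 3dpMI stood at 109 CPM in Q150X and 84.8 in WT, a ratio of 1.29 (1.17 to 1.43). Notch3 stood at 75.3 and 74.9 CPM in Q150X and WT, a ratio of 1.01 (0.899 to 1.12), and Notch2 had a ratio of 1.04 (0.971 to 1.11). Past 1.5-fold, 1 of 10 members was higher at 3dpMI (7.35% of all genes) and 2 lower (6.37%), the higher being Hey1 and the lower Dll4 and Jag2, each with an interval that included 1. At homeostasis 1 of 6 was higher (15.5% of all genes), Notch3 at 27.1 CPM in Q150X and 17.9 in WT, a ratio of 1.51 (0.945 to 2.51), and with ratios over the all-gene median 0 were.

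**Figure D3:**
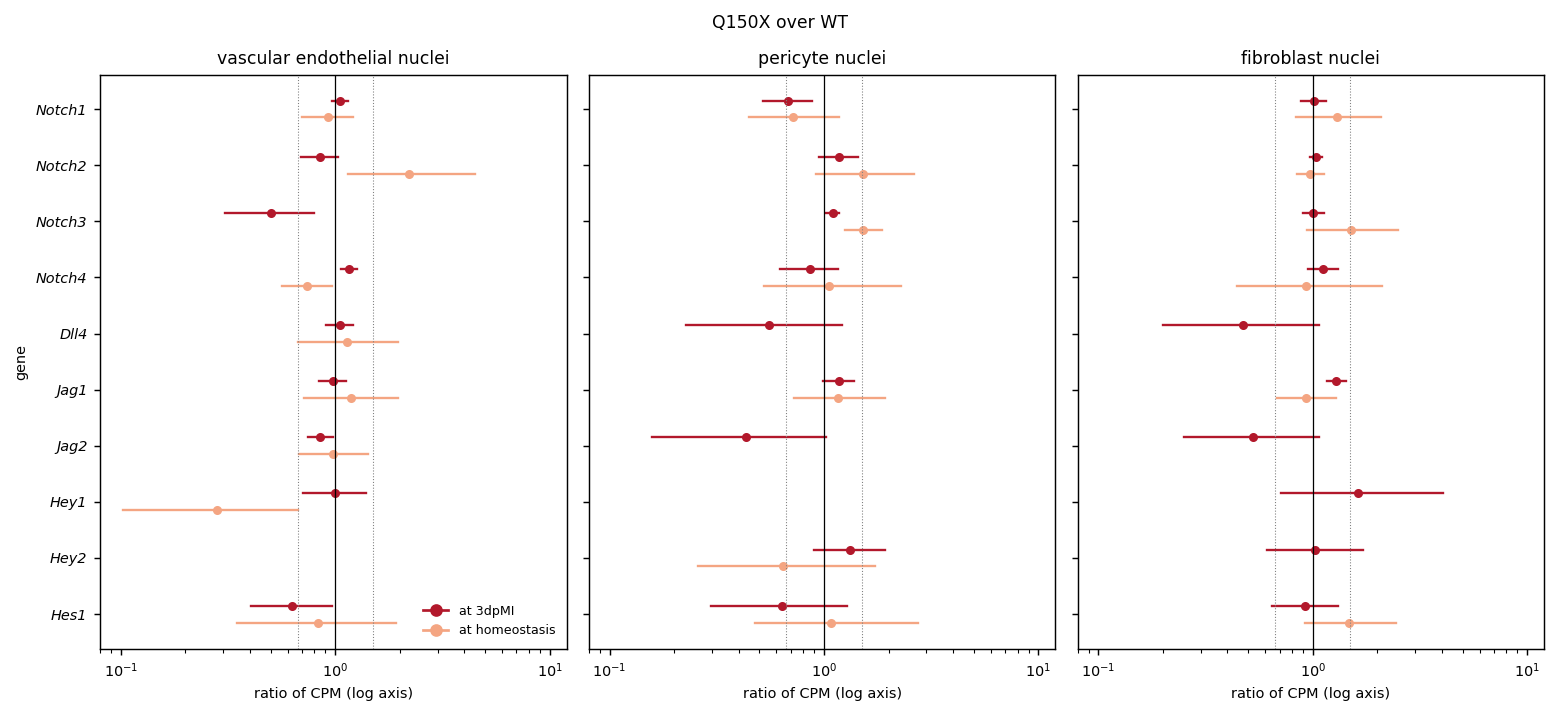
Ratio of CPM on a log axis, Q150X over WT, for the Notch genes with at least 20 UMIs in vascular endothelial, pericyte and fibroblast nuclei, at 3dpMI and at homeostasis, with exact 95% counting intervals; dotted lines are at 1.5-fold. Among the intervals that leave out 1 are those of Notch2 and Hey1 in endothelium at homeostasis.

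The comparison of 3dpMI with homeostasis asks what infarction does to the pathway, and it was made within each genotype. The 4 comparisons of the study share libraries pairwise, so their values are given side by side and are not independent of each other. Beyond the members, 30.4% to 39.4% of all genes were past 1.5-fold higher at 3dpMI in these 3 classes, and the median log2 ratio of all genes lay between 0.24 and 0.35. Depth moves with the comparison, and its part in these ratios was not tested.

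In vascular endothelium the ligand Dll4 was past 1.5-fold higher after infarction in both genotypes, and over the all-gene median ratio it was so in WT alone. Jag1 was past 1.5-fold in WT alone and Notch1 in neither genotype. Dll4 stood at 103 CPM at 3dpMI and 58.8 at homeostasis in Q150X, a ratio of 1.76 (1.23 to 2.60), and at 98.7 and 51.6 CPM in WT, a ratio of 1.91 (1.304 to 2.91). The Jag1 ratio was 1.41 (1.01 to 2.03) in Q150X and 1.72 (1.196 to 2.57) in WT, and that of Notch1 was 1.41 (1.15 to 1.75) and 1.24 (1.02 to 1.52) in Q150X and WT. Hes1 was lower, at 9.68 CPM at 3dpMI and 21.4 at homeostasis in Q150X, a ratio of 0.453 (0.230 to 0.958), and at 15.4 and 25.8 CPM in WT, a ratio of 0.596 (0.332 to 1.15). With at least 1000 UMIs per nucleus the Hes1 ratio in Q150X was 1.27 (0.213 to 51.6). Jag2 was near 1 in both, at 0.920 (0.703 to 1.22) in Q150X and 1.06 (0.812 to 1.40) in WT.

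Other members gave different ratios in the 2 genotypes. Notch4 stood at 1.53 (1.25 to 1.91) in Q150X and 0.980 (0.815 to 1.19) in WT, Notch2 at 0.840 (0.573 to 1.27) and 2.19 (1.28 to 4.06), and Hey1 at 1.49 (0.683 to 3.84) and 0.420 (0.264 to 0.693). These differences between genotypes were not tested. Past 1.5-fold, 2 of 9 members were higher in Q150X endothelium at 3dpMI (35.6% of all genes) and 1 lower (12.1%), and in WT 3 of 9 were higher (38.1%) and 2 lower (8.02%). With doublets kept, 7 members were past 1.5-fold in either direction in Q150X. With each ratio taken over the all-gene median, 0 members were higher in Q150X and 2 in WT. For these settings the share of all genes was not computed. By the 1.5-fold rule itself, the share of members higher was no larger than the background.

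The make-up of the endothelium differed between the times. Angiogenic nuclei, rich in Dll4, were 322 of 1443 vascular endothelial nuclei in Q150X 3dpMI and 307 of 2605 in WT 3dpMI, against 9 of 732 in Q150X homeostasis and 8 of 547 in WT homeostasis. Capillary nuclei came from different subclusters at the 2 times: 7 of 157 (Q150X) and 83 of 905 (WT) belonged at 3dpMI to the subcluster that held 288 of 326 (Q150X) and 341 of 348 (WT) at homeostasis. The capillary subcluster of 3dpMI had Rgs5 and Ttn, markers of pericytes and cardiomyocytes, among its leading genes. That of homeostasis was led by the haemoglobin genes Hbb-bs, Hbb-bt, Hba-a1 and Hba-a2. The part of such RNA in the capillary ratios was not tested. Within capillary nuclei Dll4 had a ratio of 1.05 (0.528 to 2.06) in Q150X and 2.31 (1.36 to 4.17) in WT. Within arterial nuclei Jag1 had a ratio of 2.21 (1.11 to 5.01) in Q150X and 2.07 (1.196 to 3.89) in WT, with arterial counts of 81 and 141 UMIs in Q150X and WT at 3dpMI, against 9 and 14 at homeostasis. Arterial subcluster 8, which held the most Jag1, was 31 of 93 arterial nuclei in Q150X 3dpMI and 66 of 305 in WT 3dpMI, against 14 of 60 in Q150X homeostasis and 4 of 92 in WT homeostasis. In subcluster 6 Jag1 stood at 175 CPM at 3dpMI and 147 at homeostasis in WT, and at 173 and 58.1 CPM in Q150X, the last on 2 UMIs. The part of this make-up in the arterial ratios was not tested. Jag1 was also higher at 3dpMI in endocardial nuclei of Q150X, at 122 against 44.6 CPM at homeostasis, a ratio of 2.72 (1.36 to 6.03), and in lymphatic nuclei of Q150X, at 213 against 103, a ratio of 2.06 (1.01 to 4.73). In WT the Jag1 ratio was 6.51 in endocardial nuclei, the homeostasis value resting on 1 UMI, and 2.36 in lymphatic nuclei. The WT homeostasis library held only 93 endocardial and 39 lymphatic nuclei, and the difference between genotypes in these ratios was not tested.

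In pericytes Notch3 and Jag1 were higher after infarction in both genotypes. Notch3 stood at 1407 CPM at 3dpMI and 862 at homeostasis in Q150X, a ratio of 1.63 (1.48 to 1.80), and at 1283 and 568 CPM in WT, a ratio of 2.26 (1.89 to 2.73). Jag1 had a ratio of 1.97 (1.53 to 2.56) in Q150X and 1.95 (1.28 to 3.12) in WT. The sum of pericyte markers did not run the same way in the 2 genotypes, at 5754 CPM at 3dpMI and 8608 at homeostasis in Q150X, and 7002 and 6191 CPM in WT. Smooth muscle markers in pericytes were higher at 3dpMI, at 1171 CPM against 570 at homeostasis in Q150X and 903 against 500 in WT, and their part in the Notch3 ratio was not tested. Smooth muscle nuclei themselves had a Notch3 ratio of 0.943 (0.729 to 1.23) and a Jag1 ratio of 2.32 (1.16 to 5.13) in WT.

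Among the targets in pericytes, Hes1 was lower and Hey2 higher after infarction in Q150X. Hes1 stood at 11.8 CPM at 3dpMI and 39.1 at homeostasis in Q150X, a ratio of 0.301 (0.139 to 0.615), and at 18.4 and 36.0 CPM in WT, a ratio of 0.511 (0.229 to 1.29). Hey2 had a ratio of 2.20 (1.24 to 4.14) in Q150X and 1.07 (0.512 to 2.59) in WT. By the 1.5-fold rule 3 of 8 members were higher in Q150X pericytes (30.4% of all genes) and 2 lower (9.9%), and in WT 4 of 9 were higher (37.3%) and 3 lower (10.0%). With ratios over the all-gene median, 2 were higher in each genotype, Notch3 and Jag1 in WT and Jag1 and Hey2 in Q150X. The share of all genes was not computed for that count.

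In fibroblasts Notch4, Notch3, Notch1 and Jag1 were higher after infarction in both genotypes, and Hes1 was lower. Notch4 stood at 41.5 CPM at 3dpMI (414 UMIs) and 7.97 at homeostasis (25 UMIs) in Q150X, a ratio of 5.21 (3.48 to 8.14). In WT it stood at 37.2 CPM at 3dpMI (272 UMIs) and 8.57 at homeostasis (11 UMIs), a ratio of 4.34 (2.39 to 8.80). The sum of the 11 endothelial markers in fibroblasts ran the other way, at 249 CPM against 451 at homeostasis in Q150X and 368 against 605 in WT. Single markers went both ways. Tek stood at 97.9 CPM at 3dpMI against 255 at homeostasis in Q150X, and at 122 against 281 in WT. Tie1 stood slightly higher at 3dpMI, at 5.62 against 5.42 CPM in Q150X and 9.85 against 8.57 in WT. Erg stood at 24.0 against 9.25 CPM in Q150X and at 14.5 against 14.8 in WT. Cdh5 was higher at 3dpMI in Q150X alone, and Flt1 and Egfl7 in WT alone. The rest were lower in both genotypes. RNA of endothelial nuclei in that share would bring 6.64 CPM of Notch4 in Q150X 3dpMI, 7.83 in WT 3dpMI, 7.49 in Q150X homeostasis and 12.6 in WT homeostasis. Without Tek, which had the most UMIs of these markers in fibroblasts, the other 10, also a split made after the values were seen, would bring 4.29 CPM in Q150X 3dpMI, 5.56 in WT 3dpMI, 3.48 in Q150X homeostasis and 7.13 in WT homeostasis. The measured levels were several times either value at 3dpMI. At homeostasis they were near or below the first and above the second. The part of endothelial RNA in the Notch4 levels and ratios was not tested.

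Notch3 in fibroblasts stood at 75.3 CPM at 3dpMI and 27.1 at homeostasis in Q150X, a ratio of 2.78 (2.22 to 3.52), and at 74.9 and 17.9 CPM in WT, a ratio of 4.18 (2.75 to 6.64). Taken whole, the 7 pericyte markers in fibroblasts would bring 81.5 CPM of Notch3 in Q150X 3dpMI, 62.9 in WT 3dpMI, 25.7 in Q150X homeostasis and 18.9 in WT homeostasis, close to what was measured. Most of that marker sum is Pdgfrb, the PDGF receptor that fibroblasts also make, with 296 of 333 CPM in Q150X 3dpMI and 246 of 343 in WT 3dpMI. The 6 other markers, a split made after the values were seen, summed to 37.3 CPM in fibroblasts of Q150X 3dpMI, 97.4 in WT 3dpMI, 110 in Q150X homeostasis and 104 in WT homeostasis, and would bring 12.1, 22.1, 12.9 and 10.9 CPM of Notch3 in the same libraries. The measured Notch3 exceeded that in each library. The part of pericyte RNA in the Notch3 levels and ratios was not tested.

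Of the other members, Notch1 had a ratio of 1.91 (1.52 to 2.43) in Q150X and 2.46 (1.66 to 3.78) in WT, and Jag1 one of 2.52 (2.11 to 3.04) and 1.81 (1.39 to 2.41). Hes1 stood at 7.53 CPM at 3dpMI and 26.5 at homeostasis in Q150X, a ratio of 0.284 (0.205 to 0.393), and at 8.21 and 17.9 CPM in WT, a ratio of 0.458 (0.279 to 0.776). Notch2, the most abundant member in UMIs, stayed near 1, at 1.12 (1.02 to 1.23) in Q150X and 1.05 (0.922 to 1.21) in WT. In all, 4 of 9 members were higher in Q150X (35.2% of all genes) and 1 lower (13.4%), and in WT 4 of 9 were higher (39.4%) and 1 lower (10.6%). By this rule the number of members called was near the background in both genotypes. With ratios over the all-gene median, 4 were higher and 2 lower in Q150X and 3 higher and 1 lower in WT. For those counts the share of all genes was not computed.

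**Figure D4:**
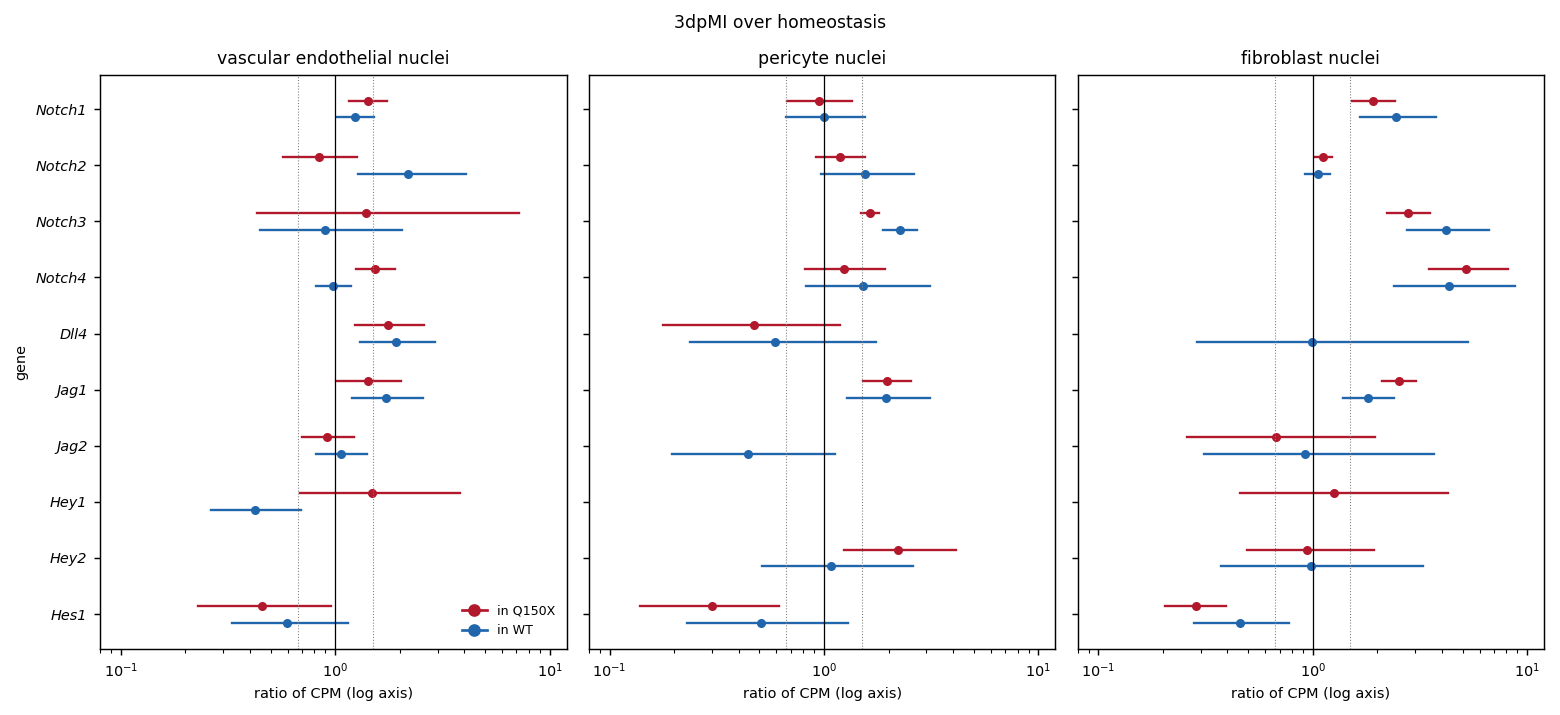
Ratio of CPM on a log axis, 3dpMI over homeostasis, for the Notch genes with at least 20 UMIs in vascular endothelial, pericyte and fibroblast nuclei, in Q150X and in WT, with exact 95% counting intervals; dotted lines are at 1.5-fold. Notch3, Notch4, Notch1 and Jag1 in fibroblasts and Notch3 and Jag1 in pericytes lie to the right of 1 in both genotypes, and Hes1 in fibroblasts lies to the left.

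Different clusters held most of the fibroblasts at the 2 times. Cluster 1, led by Kif26b and Postn, a matrix gene of activated fibroblasts, held 1525 of 1795 fibroblast nuclei in Q150X 3dpMI and 1024 of 1768 in WT 3dpMI, against 12 of 2844 in Q150X homeostasis and 3 of 1435 in WT homeostasis. Cluster 0 was present at both times, with 183 nuclei in Q150X 3dpMI, 575 in WT 3dpMI, 2377 in Q150X homeostasis and 1176 in WT homeostasis. Within cluster 0 Notch3 had a ratio of 3dpMI over homeostasis of 1.77 (1.07 to 2.83) in Q150X and 2.55 (1.5 to 4.53) in WT. Notch4 had a ratio of 4.41 (2.03 to 9.39) in Q150X and 2.22 (1.04 to 5.14) in WT. Jag1 had one of 1.42 (0.894 to 2.18) and 2.22 (1.49 to 3.40), and Hes1 one of 0.568 (0.220 to 1.23) and 0.548 (0.241 to 1.203), in Q150X and WT. The directions in cluster 0 were those of all fibroblasts, and the intervals of Hes1 and of Jag1 in Q150X included 1.

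Cluster 8, led by Pi16, a marker of adventitial fibroblasts, differed from the others in Notch3. It held 8.87 CPM in Q150X 3dpMI, 4.18 in WT 3dpMI, 13.2 in Q150X homeostasis and 6.43 in WT homeostasis, where cluster 0 held 54.3 CPM in Q150X 3dpMI, 50.4 in WT 3dpMI, 30.7 in Q150X homeostasis and 19.7 in WT homeostasis. Cluster 1 held 78.7 CPM in Q150X 3dpMI and 85.9 in WT 3dpMI. Cluster 8 was thus the lowest of the fibroblast clusters with a value in each library, on 3 UMIs in Q150X 3dpMI, 2 in WT 3dpMI, 8 in Q150X homeostasis and 2 in WT homeostasis. At homeostasis clusters 0 and 8 alone had a value, and their intervals for Notch3 overlapped in both libraries, while for Jag1 its interval overlapped that of cluster 0 in 3 of 4 libraries, the exception being WT homeostasis with 83.5 CPM in cluster 8 and 35.3 in cluster 0.

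**Figure D5:**
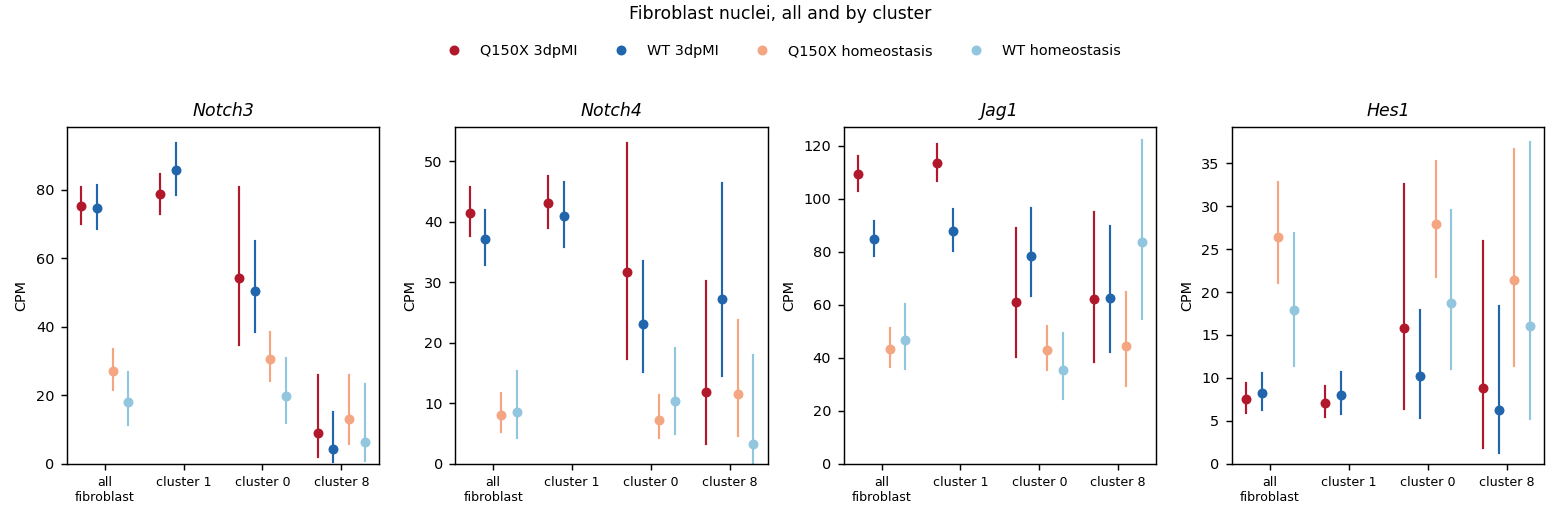
CPM of Notch3, Notch4, Jag1 and Hes1 in all fibroblast nuclei and in 3 fibroblast clusters, with 1 point per library and its exact 95% counting interval. Cluster 1 held under 20 nuclei in both homeostasis libraries and has no point there; Notch3 is lowest in cluster 8, and Hes1 is higher at homeostasis than at 3dpMI in all fibroblasts.

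The wider pathway was read from 41 other genes in 5 lists. Rbpj, the DNA-binding partner of all 4 receptors, was higher in Q150X at homeostasis in pericytes, at 352 against 144 CPM in WT, a ratio of 2.44 (1.68 to 3.64). In vascular endothelium it stood at 166 and 103 CPM in Q150X and WT, a ratio of 1.60 (1.14 to 2.28), and in fibroblasts the ratio was 0.828 (0.720 to 0.954). At 3dpMI the Q150X over WT ratio of Rbpj was 0.815 (0.679 to 0.975) in pericytes and 0.866 (0.759 to 0.988) in endothelium. Of the 10 genes of the nuclear complex, all tested, 2 were higher and 0 lower at homeostasis in Q150X than in WT, in pericytes (20.7% and 11.6% of all genes) and in vascular endothelium (17.9% and 8.85%) alike. At 3dpMI 0 of the 10 were past 1.5-fold in either direction in these classes or in fibroblasts.

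Heyl, the third Hey family repressor and a known target of Notch3, had more UMIs than each of the 3 member targets in fibroblasts and pericytes of every library and was lower in fibroblasts after infarction. It stood at 81.7 CPM in Q150X 3dpMI, 76.2 in WT 3dpMI, 190.4 in Q150X homeostasis and 149.6 in WT homeostasis, a ratio of 3dpMI over homeostasis of 0.429 (0.385 to 0.477) in Q150X and 0.509 (0.432 to 0.603) in WT. In pericytes, where Notch3 was higher, Heyl stood at 157 CPM in Q150X 3dpMI, 171 in WT 3dpMI, 187 in Q150X homeostasis and 198 in WT homeostasis, and its ratio was 0.841 (0.663 to 1.07) in Q150X and 0.861 (0.624 to 1.21) in WT. Lfng, a fringe enzyme that adds sugars to Notch receptors, was higher in fibroblasts at 3dpMI, with 117 UMIs against 9 at homeostasis in Q150X, a ratio of 4.09 (2.08 to 9.17), and 64 against 3 UMIs in WT, a ratio of 3.75 (1.23 to 18.6).

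Of the 10 nuclear complex genes in fibroblasts, 2 were higher at 3dpMI (35.2% of all genes) and 1 lower (13.4%) in Q150X, and 0 were past 1.5-fold in WT, where 39.4% of all genes were higher and 10.6% lower. Maml3, a Mastermind coactivator, was among the higher ones in Q150X at 2.01 (1.86 to 2.17), and the lower one was Kat2b, an acetyltransferase, at 0.524 (0.482 to 0.570). In WT the ratio was 1.42 (1.28 to 1.59) for Maml3 and 0.734 (0.646 to 0.836) for Kat2b. Poglut1, which adds glucose to Notch repeats, stood at 34.3 CPM at 3dpMI and 8.90 at homeostasis in Q150X endothelium, a ratio of 3.85 (1.61 to 12.1), and had a ratio of 2.14 (0.949 to 5.96) in WT. Of the 5 glycosylation genes 4 were higher (35.6% of all genes) and 1 lower (12.1%) in Q150X endothelium, and 2 higher (38.1%) and 0 lower (8.02%) in WT.

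Over the 51 sums, the genes whose levels ran most like each member were read from 12007 genes with at least 200 UMIs. For Notch4 they were Adcy4 (r = 0.926), Esam (0.918) and Cdh5 (0.905), and for Jag2 they were Abcb1a (0.933), Mcf2l (0.921) and Ccdc85a (0.899). Dll4 ran most like Pdgfb (0.856), Ushbp1 and Kdr, and Notch1 like Rgs3 (0.903), Elk3 and Arhgap31. Notch3 ran most like Rasl12 (0.904), Mark1 and Carmn, Hey2 like Cacna1h (0.879), Kcnab1 and Stac, and Hey1 like Lama3 (0.862), Crispld1 and Ssu2. Notch2 ran most like Rnf150 (0.871), Fnbp1 and Dock10. Jag1 and Hes1 had no close match, with 0.741 for Septin11 and 0.651 for Fam124a. Among the members, Notch4 ran most like Dll4 (0.825) and Jag2 (0.820), and Notch2 ran against Jag2 (-0.613) and Notch4 (-0.582). The sums share libraries and differ in depth, so these values describe the distribution over classes and carry no test.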

How the data were processed

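The deposited matrices give, for every nucleus, the UMI count of each gene without normalisation. The authors made these counts in Cell Ranger 7.1.0, per the file headers of each library. The submitters' processing notes also name Scanpy and the build GRCm39, with no role given. Every barcode had at least 500 UMIs.

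Nuclei with under 300 genes or over 10% mitochondrial UMIs were removed. Doublets were called per library with Scrublet in scanpy 1.11.5; in the Q150X homeostasis and WT 3dpMI libraries its automatic threshold marked under 0.5%, so the top scores were removed at 0.8% per 1000 nuclei. Counts were clustered together on 2000 variable genes without the Notch genes, 30 components, 15 neighbours and Leiden resolution 1 (leidenalg 0.10.2, igraph 0.11.9), and the 26 clusters were named from marker lists, 2 staying unnamed; vascular endothelial nuclei were clustered again. UMIs were summed per class and library. Intervals are exact Poisson for a sum and exact conditional binomial for a ratio, at 95%. The level that RNA of another class would bring is the share of its marker CPM found in the class, times its level of the gene. The ratio intervals and the 1.5-fold rule were tested on simulated counts that held counting error alone. Filtering, clustering, the naming of classes and the level that other RNA would bring were not tested that way.

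The members, gene lists and tests were chosen with earlier results of these data known. Among genes with 20 or more UMIs, up to 2 from either end of each other list were named; likeness names the 3 highest correlations. Intervals came from scipy 1.17.1, tables from pandas 2.3.3 with numpy 2.4.6 under Python 3.11.15, and figures from matplotlib 3.10.9. Some genes counted in the lists are not reported here by name.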

Additional observations from a re-analysis of the deposited data

Results flagged for a closer look

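Notch4 in vascular endothelial nuclei differed in direction between the times. It was 1.16 times as high in Q150X as in WT at 3dpMI, with an interval above 1, and 0.739 times as high at homeostasis, with an interval below 1. The difference between the times was not tested. Venous nuclei, low in Notch4, were 379 of 1443 vascular endothelial nuclei in Q150X 3dpMI and 497 of 2605 in WT 3dpMI, and 273 of 732 in Q150X homeostasis and 67 of 547 in WT homeostasis. Angiogenic nuclei, high in Notch4, were 322 of 1443 in Q150X 3dpMI and 307 of 2605 in WT 3dpMI. Within subtypes at 3dpMI the Notch4 ratio was 1.42 in arterial, 1.09 in capillary, 1.22 in venous and 1.10 in angiogenic nuclei. Within subtypes at homeostasis the Notch4 ratio was 1.06 in arterial, 0.758 in capillary and 1.06 in venous nuclei, each with an interval that includes 1. The part of the make-up in the ratios was not tested.

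Notch3 at homeostasis differed in direction between the mural classes. Its Q150X over WT ratio was 1.52 in pericytes, with an interval above 1, and 0.612 in smooth muscle, with an interval below 1. The pericyte ratio was under 1.5 in 4 of 9 alternative settings. The difference between the classes was not tested, and smooth muscle held 47 nuclei in Q150X and 66 in WT.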

How the results depend on the processing

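No paired analysis was possible because each group has 1 library and the labels carry no replicate numbers. Of 1938 single values recomputed under 9 other settings, 1883 moved by less than counting error and 51 by more. The other 4 were past 1.5-fold at first and turned direction. Turns of values under 1.5-fold were not counted apart and lie among the 1883 and the 51. Endothelial resolution 2 and centred genes could change endothelial subtypes alone, and leaving out unnamed endothelial subclusters the vascular endothelial sums alone. The other values of these settings were fixed in advance and lie among the 1883. With at least 1000 UMIs per nucleus 143 values could be recomputed, against 241 with nuclei weighted equally. With at least 1000 UMIs per nucleus, Hes1 in Q150X endothelium had a 3dpMI over homeostasis ratio of 1.27 (0.213 to 51.6). With doublets kept, Jag2 in fibroblasts had a Q150X over WT ratio of 1.13 (0.722 to 1.78) at 3dpMI. With at most 5% mitochondrial UMIs, Hes1 in capillary nuclei had one of 1.10 (0.330 to 2.94) at 3dpMI. With genes centred within libraries, Jag2 arterial over capillary was 0.966 (0.440 to 2.12) in WT homeostasis. Each of these intervals included 1.

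Counts of members past 1.5-fold moved more easily. In vascular endothelium, Q150X over WT, the 2 members at 3dpMI became 1 and the 2 at homeostasis became 0 with at least 1000 UMIs. The 3 members of Q150X endothelium, 3dpMI over homeostasis, became 7 with doublets kept, 1 over the all-gene median ratio and 5 with the unnamed endothelial subclusters left out, a setting added after seeing the data. For arterial over capillary nuclei, the 3 members of WT 3dpMI became 6 with at least 1000 UMIs and with doublets kept, where the capillary class had 63 and 50 nuclei in place of 905. In Q150X 3dpMI these settings and the Notch genes kept for clustering left 12, 1 and 11 capillary nuclei, and at homeostasis 1000 UMIs left 6 arterial nuclei in Q150X and 5 in WT, so there was no count. The 2 of Q150X homeostasis became 4 with doublets kept and 1 with at most 5% mitochondrial UMIs, with the Notch genes kept for clustering, at resolution 2, with centred genes and with nuclei weighted equally. The 4 of WT homeostasis became 2 with at most 5% mitochondrial UMIs and 1 with centred genes. The cause was not tested. Depth limits the homeostasis libraries most: arterial Dll4, Hey1 and Jag1 rest there on 2 to 14 UMIs, so their ratios have wide intervals.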

Other observations

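Members were also measured in classes outside vessels and stroma. In cardiomyocytes Hey2, which in the embryo represses atrial genes in the ventricle, stood at 7.34 CPM in Q150X 3dpMI, 9.85 in WT 3dpMI, 4.01 in Q150X homeostasis and 2.59 in WT homeostasis, a ratio of 3dpMI over homeostasis of 1.83 (0.880 to 4.02) in Q150X and 3.81 (1.84 to 9.13) in WT. Hes1 in cardiomyocytes stood at 11.6 CPM in Q150X 3dpMI, 6.35 in WT 3dpMI, 5.68 in Q150X homeostasis and 4.53 in WT homeostasis. Different clusters held the cardiomyocytes at the 2 times: the one led by Shroom3 and Xirp2 held 265 of 381 nuclei in Q150X 3dpMI and 382 of 1158 in WT 3dpMI, against 32 of 837 in Q150X homeostasis and 38 of 1564 in WT homeostasis. The 3dpMI over homeostasis ratio of Hes1 in cardiomyocytes was 2.05 (1.13 to 3.87) in Q150X and 1.40 (0.762 to 2.75) in WT. Q150X over WT at 3dpMI it was 1.83 (1.17 to 2.85).

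In macrophages Jag1 stood at 127 CPM in Q150X 3dpMI, 121 in WT 3dpMI, 60.6 in Q150X homeostasis and 18.7 in WT homeostasis, the WT homeostasis value resting on 1 UMI. Its 3dpMI over homeostasis ratio in Q150X was 2.09 (1.35 to 3.45). Notch1 in macrophages stood between 85.5 and 106 CPM, and was 0.808 (0.699 to 0.934) times as high in Q150X as in WT at 3dpMI. Different clusters hold most of the macrophages at the 2 times: the cluster with Lyve1 and Cd163 among its leading genes held 10 of 2146 nuclei in Q150X 3dpMI and 51 of 1079 in WT 3dpMI, against 337 of 360 in Q150X homeostasis and 67 of 72 in WT homeostasis.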
